A study of Homo sapiens with 36 samples.

Results

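Lysozyme and the proteins of the primary (azurophil) granule are the antimicrobial cargo of neutrophils, monocytes and their precursors. The 7 genes described here are LYZ (lysozyme, which cleaves bacterial cell walls), SRGN (serglycin, the proteoglycan on which granule proteins are packed), MPO (myeloperoxidase), the serine proteases ELANE (neutrophil elastase), PRTN3 (proteinase 3) and CTSG (cathepsin G), and AZU1 (azurocidin, a protease relative without catalytic activity). They were taken by name, as 7 of 35490 genes with a summed value, because earlier results of these data had shown LYZ higher after A9 in both cell lines and CTSG lower in MONO-MAC-6. Their A9 against DMSO values are therefore a description and no test.

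In the marrow, primary granules form at the promyelocyte stage. The serine proteases are made as inactive precursors that cathepsin C trims, are bound to the acidic sugar chains of serglycin, and are held in check by serpins. PU.1, C/EBP factors, MYB and RUNX1 are known regulators of these genes, whose transcripts are high in promyelocytes and decline as cells mature, whereas lysozyme persists in mature monocytes and macrophages.

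MOLM-13 and MONO-MAC-6 are human acute myeloid leukaemia lines with monocytic features, both labelled wild type. Cells were cultured for 72 h with DMSO, the vehicle, or with A9, a PROTAC (a molecule that brings a target protein to a ubiquitin ligase for degradation). The series' design names IKK2 and NR4A1 as its targets and the title names IKK1 and NR4A1. MOLM-13 received 0.125 µM A9 and MONO-MAC-6 received 0.25 µM, which means that effects of the line and of the dose cannot be told apart. Each of the 4 groups, MOLM-13 DMSO, MOLM-13 A9, MONO-MAC-6 DMSO and MONO-MAC-6 A9, held 9 libraries under 3 first numbers. Libraries of a first number were averaged, which gave 3 samples per group. The series states N = 3 per condition and line, but not which number marks the replicate. With libraries of a second number averaged instead, all 7 granule genes passed the test of A9 against DMSO in each line. So did 5439 of all genes in MOLM-13 and 8705 of all genes in MONO-MAC-6. Over the members, averages of a second number spread less than those of a first number (median SD 0.016 against 0.13, log2). Libraries within a first number spread by 0.031, so these larger counts may rest on differences between libraries alone. Nothing in the labels says that the samples were separate cultures, so the errors cover the spread between these samples, which may be technical.

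Values are TPM, transcript abundances corrected for length that sum to 1000000 in every library, so the depth behind them is unknown. Differences are on the log2(TPM + 1) scale from limma, with a call at an adjusted p under 0.05. DMSO sample 1 of MONO-MAC-6 stood apart from samples 2 and 3. The median log2 difference over all genes in that line was 0.16 with it and 0.027 without it, against -0.046 in MOLM-13, and 0.0058 after median-ratio scaling of the samples. Of the calls in MONO-MAC-6, 323 were higher and 110 lower, against 341 and 213 after that scaling. The T cell list (5 genes) summed to 30.2 to 49.2 TPM in MOLM-13 and 2.43 to 4.42 TPM in MONO-MAC-6, with CD3E at 0 in all 12 samples. In each group only 1 of those 5 genes averaged 1 TPM or more. The B cell list (5 genes) summed to 2.02 to 3.84 TPM and 6.31 to 11.1 TPM, with MS4A1 at 0 in all. The erythroid and megakaryocyte list (8 genes) summed to at most 1.10 TPM, with HBB at 0 in all. The progenitor list (7 genes) summed to 96.3 to 146 TPM in MOLM-13 and 565 to 992 TPM in MONO-MAC-6, although its marker CD34 was under 0.34 TPM in each sample.

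In GENCODE 29 on GRCh38, LYZ lies at chr12:69348341-69354234 and SRGN at chr10:69088106-69104811, both on the plus strand. AZU1 (chr19:825097-832018), PRTN3 (chr19:840960-848175) and ELANE (chr19:851014-856247) form a cluster on the plus strand. CTSG (chr14:24573522-24576260) and MPO (chr17:58269856-58280935) lie on the minus strand. The start-site sequences of the protease genes are shown because CTSG and PRTN3 differed in opposite directions after A9. RefSeq sequences (GRCh38.p14) were at hand for CTSG, PRTN3 and AZU1 (3 of the 7 genes). Capitals mark the PU.1 motif GAGGAAG or its reverse complement. The CTSG window is chr14:24576251-24576500 on the minus strand, up to the RefSeq start. Its end also lies in an annotated exon, because the transcript CTSG-201 begins at 24576260. The PRTN3 window is chr19:840749-840959 on the plus strand and leaves out the last 39 bases before the RefSeq start, which belong to an annotated exon. The AZU1 window is chr19:827587-827836 on the plus strand.
CTSG: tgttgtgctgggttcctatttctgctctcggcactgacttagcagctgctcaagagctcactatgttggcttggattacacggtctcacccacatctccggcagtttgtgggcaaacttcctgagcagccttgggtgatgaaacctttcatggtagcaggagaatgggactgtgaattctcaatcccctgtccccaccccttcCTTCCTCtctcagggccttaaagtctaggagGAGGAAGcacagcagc
PRTN3: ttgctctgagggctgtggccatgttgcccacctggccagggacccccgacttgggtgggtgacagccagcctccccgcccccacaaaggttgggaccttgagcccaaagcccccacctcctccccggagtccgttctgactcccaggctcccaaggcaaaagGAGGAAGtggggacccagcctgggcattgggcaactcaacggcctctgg
AZU1: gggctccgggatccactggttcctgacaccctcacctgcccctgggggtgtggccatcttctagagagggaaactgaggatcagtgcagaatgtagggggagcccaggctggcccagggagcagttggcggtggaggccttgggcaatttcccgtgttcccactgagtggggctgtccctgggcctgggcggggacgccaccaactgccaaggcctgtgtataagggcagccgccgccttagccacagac

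In the 250 bases before the RefSeq start, the CTSG window held 2 PU.1 matches, 47 bases (reverse strand) and 16 bases (forward strand) before that start. The PRTN3 window held 1, 88 bases before the start, and the AZU1 window held none. The transcript that carried nearly all of the AZU1 TPM starts upstream of the AZU1 window. The sequence before that start was not searched here. Over 35116 promoter windows of that length, 11.2% had a PU.1 match on either strand. The C/EBP motif TTNCNNAA was found once in PRTN3 (62 bases before the start) and once in AZU1 (111 bases before), not in CTSG, and in 33.2% of all windows. The MYB motif AACNG was found in all 3, with 2 matches in PRTN3, 3 in AZU1 and 1 in CTSG, and in 70.6% of all windows. The RUNX motif TGTGGT was in none of the 3 and in 11.0% of all windows. No match overlapped another. A match describes the letters only.

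At baseline the lines differed most in LYZ, PRTN3 and CTSG. In DMSO, MONO-MAC-6 carried 25.6 times the LYZ of MOLM-13, whereas MOLM-13 carried 5.86 times the CTSG of MONO-MAC-6. All 7 genes passed the limma test between the DMSO samples of the lines, 5 higher and 2 lower in MONO-MAC-6. Of 13417 tested genes 58.0% passed, 35.9% higher and 22.1% lower in that line. The log2 differences were 4.67 for LYZ (SE 0.080, adjusted p 8.7e-12), 1.62 for SRGN (SE 0.070, 8.4e-09), 6.30 for PRTN3 (SE 0.67, 1.4e-05) and 1.33 for ELANE (SE 0.12, 2.7e-06). AZU1 was higher in MONO-MAC-6 by 0.63 (SE 0.16, adjusted p 0.0057). CTSG differed by -2.56 (SE 0.11, adjusted p 8.1e-09) and MPO by -0.87 (SE 0.27, adjusted p 0.016). For AZU1 the call was lost after median-ratio scaling (log2 difference 0.51, adjusted p 0.13), and for MPO without MOLM-13 DMSO sample 1 (-0.75, adjusted p 0.059). MPO came to -0.57 (adjusted p 0.043) when DMSO sample 1 of MONO-MAC-6 was left out. These 2 were also the genes with the smallest differences of the 7.

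The order of the levels differed between the lines. In MOLM-13 DMSO, CTSG led with 3461 ± 163 TPM (SD, n = 3), followed by SRGN (981) and ELANE (932), whose samples overlapped, then AZU1 (187), LYZ (133), MPO (92.7) and PRTN3 (24.6). In MONO-MAC-6 DMSO, LYZ (3413) and SRGN (3020) led with overlapping samples, followed by ELANE (2343), PRTN3 (1226), CTSG (591), AZU1 (292) and MPO (51.9). Apart from those overlaps, no neighbours in either order shared any range. Under A9, CTSG still led in MOLM-13, with ELANE, SRGN, PRTN3, LYZ, AZU1 and MPO after it, and PRTN3 and LYZ overlapped. Under A9 in MONO-MAC-6 the order was LYZ, SRGN, ELANE, PRTN3, AZU1, CTSG and MPO, where AZU1 and CTSG overlapped.

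**Figure D1:**
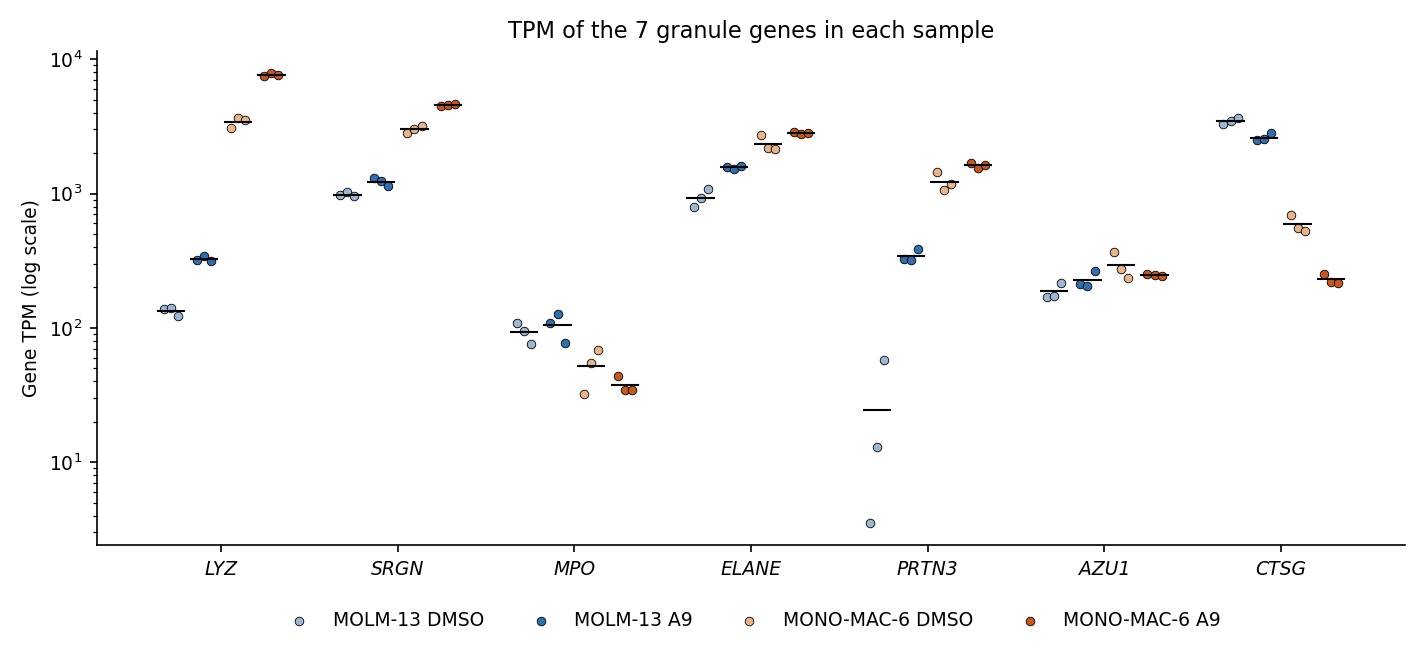
TPM of each granule gene (log axis) in the 3 samples of each of the 4 groups; points are samples and the horizontal lines are group means. LYZ lies higher under A9 in both lines, CTSG lies lower under A9 in both, and the PRTN3 points of MOLM-13 DMSO run from 3.55 to 57.3 TPM.

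LYZ stood higher after A9 in both lines, by a similar factor in TPM as deposited, from levels that differed widely. In MOLM-13 it was 138, 141 and 122 TPM in DMSO samples 1 to 3 and 320, 343 and 317 TPM in the A9 samples. In MONO-MAC-6 it was 3068, 3624 and 3548 TPM in DMSO and 7564, 7868 and 7612 TPM in A9. All A9 samples lay above all DMSO samples in each line. The means went from 133 ± 10.4 to 327 ± 14 TPM (SD, n = 3), 2.45 times, in MOLM-13, and from 3413 ± 301 to 7681 ± 163 TPM, 2.25 times, in MONO-MAC-6. The log2 differences were 1.29 (95% interval 1.11 to 1.47) and 1.17 (0.95 to 1.40), and their difference, MONO-MAC-6 minus MOLM-13, was -0.11 (-0.36 to 0.14). After median-ratio scaling the values lay further apart, at 1.34 (SE 0.098) in MOLM-13 and 0.997 (SE 0.16) in MONO-MAC-6. Among all genes above 0, LYZ moved from rank 829 to 325 in MOLM-13, whereas in MONO-MAC-6 it went from rank 32 to 9. In bulk RNA, a change in the share of cells of a type and a change in RNA per cell cannot be told apart.

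SRGN, whose product carries the proteases in the granule, was higher under A9 in each sample of both lines. Its DMSO samples in MOLM-13 were at 967, 1019 and 957 TPM and its A9 samples at 1311, 1237 and 1137 TPM. In MONO-MAC-6 the DMSO samples were at 2808, 3042 and 3210 TPM and the A9 samples at 4487, 4532 and 4671 TPM. The ranges did not overlap in either line. The log2 differences were 0.32 (SE 0.070) for MOLM-13 and 0.60 (SE 0.084) for MONO-MAC-6, or 1.25 and 1.51 times in TPM. After median-ratio scaling the value in MONO-MAC-6 was 0.42 (SE 0.16) and was no longer called.

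CTSG was lower under A9 in both lines, and by more in MONO-MAC-6, where it started lower. Its DMSO samples in MOLM-13 were at 3302, 3454 and 3626 TPM and its A9 samples at 2488, 2531 and 2818 TPM. In MONO-MAC-6 the DMSO samples were at 692, 557 and 523 TPM and the A9 samples at 253, 219 and 215 TPM. No A9 sample reached the lowest DMSO sample of its line. The log2 difference was -0.41 (95% interval -0.58 to -0.23) in MOLM-13, and the A9 mean was 0.755 of the DMSO mean. In MONO-MAC-6 it was -1.36 (-1.67 to -1.04), and the A9 mean was 0.388 of the DMSO mean. Without DMSO sample 1 of MONO-MAC-6 it was -1.24 (SE 0.074). After median-ratio scaling the values were -0.36 (SE 0.18) in MOLM-13 and -1.53 (SE 0.23) in MONO-MAC-6, with larger errors in both lines. Among all genes CTSG went from rank 45 to 68 in MOLM-13, whereas in MONO-MAC-6 it went from rank 196 to 525. The log2 differences of the lines differed by -0.95 (-1.29 to -0.61), MONO-MAC-6 minus MOLM-13. This difference was called for CTSG alone of the 7, and for 2.99% of 13417 genes. CTSG was chosen on this contrast, so its call is a description and no test. After median-ratio scaling the difference (-1.18) was no longer called.

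ELANE was higher under A9 in every sample of both lines. In MOLM-13 it was 791, 927 and 1077 TPM in DMSO and 1589, 1529 and 1608 TPM in A9, 1.69 times. In MONO-MAC-6 it was 2719, 2169 and 2140 TPM in DMSO and 2892, 2768 and 2846 TPM in A9, 1.21 times. The log2 differences were 0.77 (SE 0.11) for MOLM-13 and 0.28 (SE 0.11) for MONO-MAC-6, where DMSO sample 1 lay close under the A9 samples. Without that sample the value was 0.40 (SE 0.034), and after median-ratio scaling 0.11 (SE 0.24). The difference between the lines, -0.48 (95% interval -0.85 to -0.12), was not called.

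In MOLM-13, PRTN3 had the largest difference of the 7 between treatments, and its DMSO samples also differed most from each other. They were at 3.55, 13.0 and 57.3 TPM, against 323, 321 and 388 TPM in A9, so that no A9 sample came near them. The A9 mean of 344 ± 37.8 TPM (SD, n = 3) was 14 times the DMSO mean of 24.6 ± 28.7 TPM. The log2 difference was 4.47 with a wide 95% interval of 2.43 to 6.52. It was 3.59 (SE 0.57) without DMSO sample 1 and 5.43 (SE 0.46) without DMSO sample 3. In MONO-MAC-6, PRTN3 was 1437, 1062 and 1178 TPM in DMSO and 1699, 1541 and 1644 TPM in A9, also without overlap, 1.33 times. The log2 difference was 0.42 (SE 0.13), 0.54 (SE 0.057) without DMSO sample 1 and 0.24 (SE 0.24) after median-ratio scaling. In rank, PRTN3 went from 4093 to 309 in MOLM-13, whereas in MONO-MAC-6 it went from 124 to 84.

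AZU1 and MPO overlapped between the treatments in both lines. AZU1 was 171, 173 and 216 TPM in DMSO and 214, 207 and 263 TPM in A9 in MOLM-13, where the top DMSO sample lay within the A9 range. In MONO-MAC-6 it was 369, 272 and 236 TPM in DMSO and 253, 246 and 242 TPM in A9. The log2 differences were 0.29 (95% interval -0.028 to 0.60) and -0.22 (-0.61 to 0.17). MPO, the haem enzyme of the same granule, was 108, 94.0 and 75.7 TPM in DMSO and 109, 127 and 77.4 TPM in A9 in MOLM-13. In MONO-MAC-6 it was 32.4, 54.7 and 68.6 TPM in DMSO and 44.1, 34.3 and 34.7 TPM in A9. Its log2 differences were 0.16 (-0.35 to 0.67) and -0.40 (-1.06 to 0.27). Without DMSO sample 1, MPO in MONO-MAC-6 came to -0.69 (SE 0.15) and AZU1 to -0.038 (SE 0.061). Without DMSO sample 3 they came to -0.17 (SE 0.25) and -0.36 (SE 0.14), so both values depended on single samples.

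**Figure D2:**
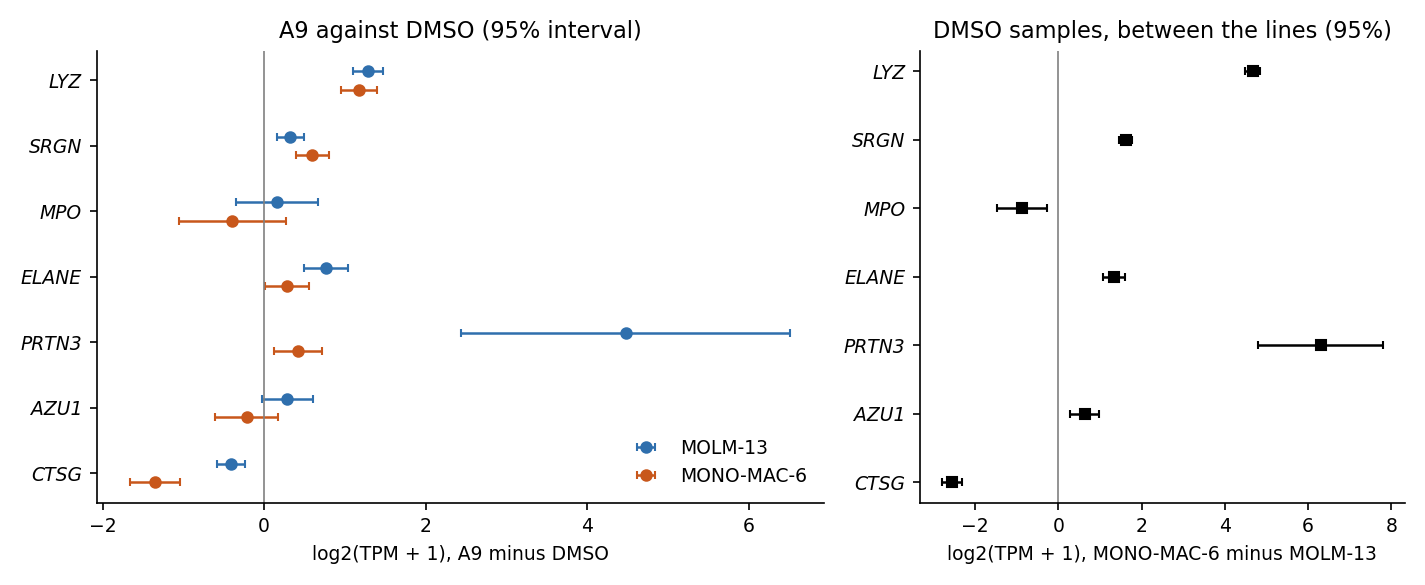
Log2(TPM + 1) differences of the granule genes with 95% intervals from limma: A9 minus DMSO in MOLM-13 (blue) and MONO-MAC-6 (orange) on the left, and MONO-MAC-6 minus MOLM-13 in DMSO on the right. LYZ, SRGN, ELANE and PRTN3 lie above 0 in both lines under A9 and CTSG below 0 in both, and the PRTN3 interval in MOLM-13 is the widest (2.43 to 6.52).

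In each line 4 of the 7 genes were higher in all A9 samples (LYZ, SRGN, ELANE and PRTN3) and 1 was lower in all (CTSG). Over all tested genes, 8.58% were higher without overlap and 6.42% lower in MOLM-13, and 27.2% and 10.7% in MONO-MAC-6. At an adjusted p under 0.05, 1 of 7 was called in MOLM-13 (LYZ, higher), where 0.121% of 11602 genes were (0.0862% higher and 0.0345% lower). In MONO-MAC-6, 3 of 7 were called (LYZ and SRGN higher, CTSG lower), where 3.36% of 12876 genes were (2.51% higher and 0.854% lower). The genes were chosen on this contrast, so these counts are read no further. The call of LYZ in MOLM-13 was lost without A9 sample 1. In MONO-MAC-6, only LYZ was called without A9 sample 2 or A9 sample 3, LYZ and CTSG without A9 sample 1 or DMSO sample 2, and all but AZU1 without DMSO sample 1. The median log2 difference of the 7 was 0.32 for MOLM-13 and 0.28 for MONO-MAC-6, beside -0.046 and 0.16 over all genes.

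The balance within the chymotrypsin-like family lay further from CTSG and nearer to ELANE and PRTN3 under A9, while the family's sum overlapped between the treatments. CTSG, ELANE, PRTN3 and AZU1 together came to 4603 ± 356 TPM in MOLM-13 DMSO and 4760 ± 275 TPM in A9 (SD, n = 3). In MONO-MAC-6 they came to 4452 ± 663 and 4939 ± 162 TPM. The overlap rested on 1 DMSO sample in each line. In MONO-MAC-6, DMSO sample 1 was at 5217 TPM, whereas samples 2 and 3 (4061 and 4077) lay below all A9 samples (4773 to 5097). In MOLM-13, DMSO sample 3 was at 4977 TPM, whereas samples 1 and 2 (4267 and 4566) lay below all A9 samples (4587 to 5077). Of that sum in MOLM-13, CTSG held 75.3% ± 2.27 in DMSO and 54.9% ± 0.836 in A9, and PRTN3 went from 0.506% ± 0.568 to 7.21% ± 0.366. In MONO-MAC-6, CTSG held 13.3% ± 0.445 in DMSO and 4.64% ± 0.313 in A9, ELANE went from 52.7% ± 0.664 to 57.4% ± 0.630 and PRTN3 from 27.5% ± 1.36 to 32.9% ± 0.573. All 7 genes together made up 0.581% of TPM in MOLM-13 DMSO and 0.642% in A9, against 1.09% and 1.72% in MONO-MAC-6. These shares follow from the same values as the differences above and are no separate evidence.

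**Figure D3:**
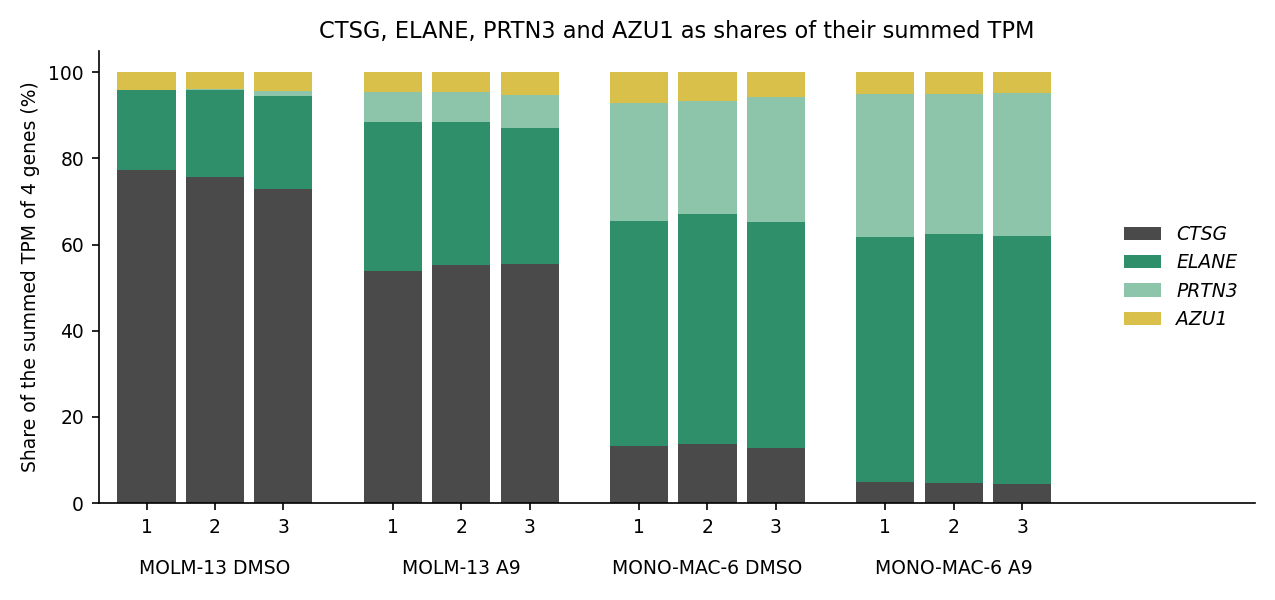
Shares of CTSG, ELANE, PRTN3 and AZU1 in their summed TPM (percent, stacked bars from 0 to 100), 1 bar per sample and 3 per group. The CTSG share is 75.3% and 54.9% (DMSO and A9) for MOLM-13, 13.3% and 4.64% for MONO-MAC-6 (group means), and PRTN3 becomes visible in MOLM-13 under A9.

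Transcripts within a gene were compared because their shares do not follow from the gene sums. PRTN3 has 2 annotated transcripts. PRTN3-201 (chr19:840960-848175) begins with an exon that holds the start codon, and PRTN3-202 (chr19:843341-848175) begins downstream of it. The coding bases of that first exon, chr19:841009-841069 on the plus strand of GRCh38, are shown with the start codon in capitals because they are the part that only PRTN3-201 holds.
PRTN3-201 exon 1: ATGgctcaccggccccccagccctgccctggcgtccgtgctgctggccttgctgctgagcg

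The PRTN3 difference in MOLM-13 lay in PRTN3-201. It was 0.058, 8.70 and 52.6 TPM in DMSO samples 1 to 3 and 319, 316 and 382 TPM in the A9 samples. PRTN3-202 was 3.49, 4.26 and 4.71 TPM in DMSO and 4.65, 5.19 and 5.94 TPM in A9. PRTN3-201 thus held 1.63%, 67.1% and 91.8% of the gene in DMSO and 98.4% to 98.6% in A9. In MONO-MAC-6 it held 97.3% ± 0.368 in DMSO and 97.8% ± 0.149 in A9 (SD, n = 3).

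ELANE-201 took a larger share of ELANE in all A9 samples of both lines, at 71.4% ± 3.56 in DMSO and 79.5% ± 2.10 in A9 in MOLM-13, and 86.3% ± 0.753 and 87.2% ± 0.159 in MONO-MAC-6. The other transcript, ELANE-202, starts further upstream (851014 against 852291 on chromosome 19). Across 21 such shares, the smallest p that an exact two-sided permutation test of 3 against 3 can give is 0.1, and no adjusted p was under 0.19. The shares of PRTN3-201 and ELANE-201 reached that smallest p in both lines. So did CTSG-201 and LYZ-201 in MOLM-13 and MPO-205 and SRGN-201 in MONO-MAC-6. For CTSG-201 the difference was only 0.095 percentage points, so reaching that p was not particular to PRTN3 and ELANE.

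The other members rested on 1 transcript each. CTSG-201, LYZ-201 and SRGN-201 held over 98% of their genes in every group, MPO-201 held 82.5% to 88.0% and AZU1-202 97.6% to 99.98% (group means). AZU1-202 is annotated as protein-coding with 4 exons and 1713 bases, against 5 exons and 908 bases in AZU1-201. AZU1-202 starts at 825097 on chromosome 19, so the AZU1 window does not lie before its start. AZU1-201, which starts at 827836, the last base of the AZU1 window shown above, was at most 0.25 TPM in MOLM-13, compared with MONO-MAC-6 values of 2.03 to 19.3 TPM. Of the 31-base stretches of the main transcripts, 16.8% in LYZ-201, 9.03% in AZU1-202 and 0.785% in MPO-201 (25 stretches, all with EPX, eosinophil peroxidase) also occur in transcripts of other genes, and none in SRGN, ELANE, PRTN3 or CTSG. AC020656.1 overlaps the end of LYZ on the opposite strand, and whether counting used strand is not given in the sources used here.

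**Figure D4:**
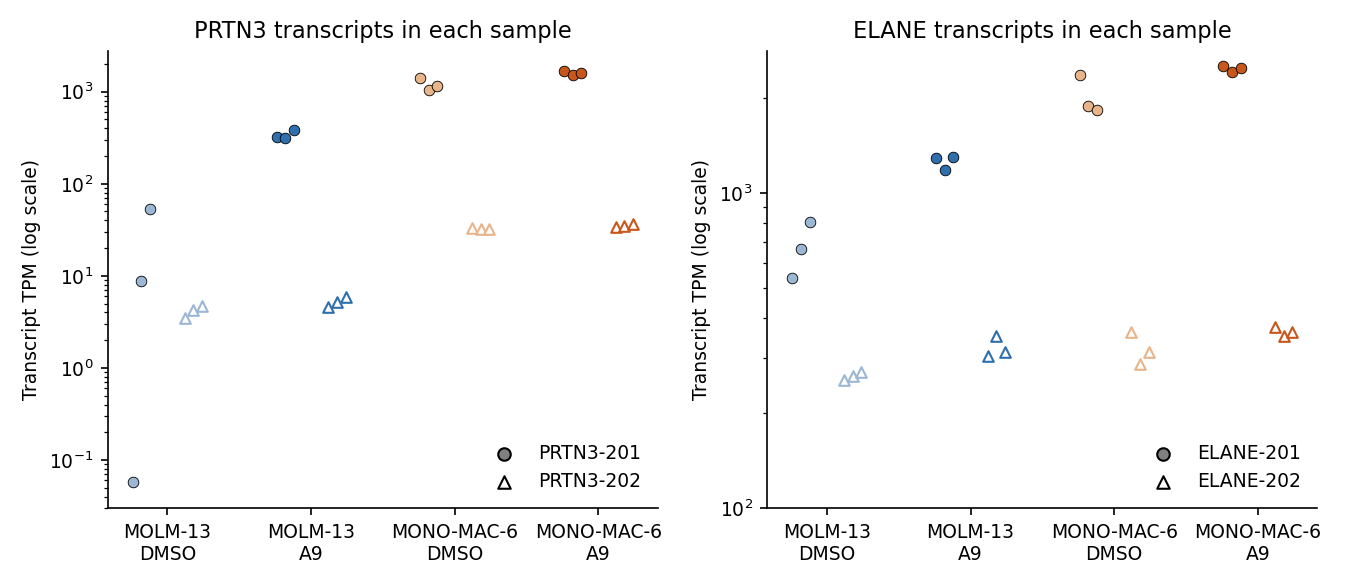
TPM (log axis) of PRTN3-201 and PRTN3-202 (left) and of ELANE-201 and ELANE-202 (right) in each sample of the 4 groups; filled circles are the 201 transcripts and open triangles the 202 transcripts. PRTN3-201 spans 0.058 to 52.6 TPM in MOLM-13 DMSO and 316 to 382 TPM in A9, whereas PRTN3-202 stays between 3.49 and 5.94 TPM in that line.

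Genes next to the members were set beside them. AZU1, PRTN3 and ELANE lie in this order within chr19:825097-856247, and CFD (complement factor D, another serine protease of myeloid cells) begins 3.40 kb after ELANE. CFD passed the limma test in MONO-MAC-6, from 114 ± 12.8 to 212 ± 12.3 TPM (log2 difference 0.89, SE 0.10, adjusted p 0.010). That call was lost after median-ratio scaling (adjusted p 0.11) and without A9 sample 1, 2 or 3 (0.052, 0.082 and 0.084). In MOLM-13 it was 167 ± 9.11 and 226 ± 10.1 TPM (adjusted p 0.090). PLPPR3, which ends 3.12 kb before AZU1, was 338 and 365 TPM in MOLM-13 (DMSO and A9 means), compared with MONO-MAC-6 values of 277 and 259 TPM. Beside LYZ, YEATS4 was 71.7 and 69.7 TPM in MOLM-13, compared with MONO-MAC-6 values of 28.8 and 27.5 TPM. Beside CTSG in the granzyme cluster of chromosome 14, GZMH was 1.32 ± 0.190 and 0.398 ± 0.129 TPM in MOLM-13, compared with MONO-MAC-6 values of 0.199 and 0.038 TPM. Of 30 neighbours, 0 of 23 tested were called in MOLM-13 (4 at an unadjusted p under 0.05), and 1 of 22 (CFD) in MONO-MAC-6 (4 unadjusted), where 3.36% of all genes were called.

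The genes whose pattern was most like that of LYZ, over 12 samples centred on each line's mean and 7905 genes of at least 5 TPM, were GLIPR2 (Pearson r 0.99), PRRT4 (0.98) and GLA (0.98). For CTSG they were CST7 (0.99), MT2A (0.99) and GPX7 (0.98). Spearman's rho put them at 0.87, 0.94 and 0.72 for LYZ and at 0.95, 0.99 and 0.97 for CTSG. CST7, which encodes cystatin F, was 44.4 and 39.0 TPM in MOLM-13, compared with MONO-MAC-6 values of 214 and 121 TPM (DMSO and A9 means). Among the members, CTSG ran opposite to SRGN (r -0.969) and to LYZ (-0.850), and LYZ ran with SRGN (0.924) and ELANE (0.806). AZU1 and MPO were close to 0 with LYZ (0.022 and -0.073). The 12 points share 2 lines and 1 treatment contrast, so these are descriptions with no test.

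Around the members, 95 genes were taken in 7 lists, and those above the filter were tested by the same fits. The lists hold other primary granule genes, specific and gelatinase granule genes, related proteases and peroxidases, chondroitin sulfate synthesis, activation and sorting, inhibitors, and transcription factors. In MOLM-13, 0 of 56 tested genes passed limma at an adjusted p under 0.05, and the unadjusted p was under 0.05 for 15. Of 64 tested in MONO-MAC-6, 10 rose and 3 fell, and the unadjusted p was under 0.05 for 32. Over all genes in that line, 2.51% were called higher and 0.854% lower, and 2633 of 12876 had an unadjusted p under 0.05. In MOLM-13, 915 of 11602 did. The median log2 difference of the tested list genes was 0.058 for MOLM-13 and 0.23 for MONO-MAC-6, beside -0.046 and 0.16 over all genes. The lists were chosen with earlier results known, so the counts are descriptive of them.

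Of the other primary granule genes in MONO-MAC-6 (8 tested), CD68 and FUCA1 rose and PRSS57 fell. CD68, a membrane glycoprotein of granules and lysosomes, went from 52.5 ± 10.7 to 173 ± 11.6 TPM (log2 difference 1.72, adjusted p 0.0054). FUCA1, a lysosomal fucosidase, went from 9.08 ± 0.800 to 24.2 ± 3.29 TPM (1.32, adjusted p 0.0076). PRSS57, a serine protease stored in the same granule as ELANE, went from 321 ± 64.7 to 157 ± 15.0 TPM (-1.01, adjusted p 0.026). In MOLM-13 PRSS57 was 571 ± 45.2 and 625 ± 33.0 TPM. Of the specific granule genes (6 tested), HP (haptoglobin) rose from 9.51 ± 1.19 to 221 ± 37.6 TPM (4.39, adjusted p 0.00040) and CHI3L1 from 167 ± 26.9 to 518 ± 25.2 TPM (1.63, adjusted p 0.0028).

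Of the related proteases (5 tested), the tryptases TPSB2 (52.0 to 133 TPM, log2 difference 1.35, adjusted p 0.0031) and TPSAB1 (31 to 80.3 TPM, 1.36, adjusted p 0.0066) rose beside CFD. They are near-identical copies between which reads may have been split, and so uncertain as single genes. GZMA (granzyme A) fell from 3.34 to 0.419 TPM (-1.61, adjusted p 0.0050).

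Of the genes that build, activate and restrain the cargo, 1 passed in MONO-MAC-6. Of 13 chondroitin sulfate genes tested in that line 0 passed limma (3 at an unadjusted p under 0.05), and of 4 inhibitors 0 passed (2 unadjusted). CTSC, the enzyme that activates the proteases, was 141 and 142 TPM in MOLM-13, compared with MONO-MAC-6 values of 277 and 246 TPM (adjusted p 0.96 and 0.23). SERPINB1, an inhibitor of elastase, proteinase 3 and cathepsin G, was 42.7 and 47.1 TPM, and 73.7 and 85.3 TPM (adjusted p 0.86 and 0.39). SERPINB6, an inhibitor of cathepsin G, was 0.685 and 0.860 TPM in MOLM-13, compared with MONO-MAC-6 values of 45.7 and 53.3 TPM (adjusted p 0.20). Of 15 activation and sorting genes, CALR (calreticulin, an endoplasmic reticulum chaperone that binds the MPO precursor) fell in MONO-MAC-6, from 3501 ± 107 to 2400 ± 125 TPM (-0.55, adjusted p 0.020). After median-ratio scaling, the calls of CALR (adjusted p 0.067) and PRSS57 (0.060) were lost.

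Of 13 tested transcription factors in MONO-MAC-6, 3 rose. SPI1, which encodes PU.1, went from 262 ± 13.4 to 340 ± 4.09 TPM (log2 difference 0.38, adjusted p 0.045), a call lost after median-ratio scaling (adjusted p 0.46). EGR1 went from 31.6 ± 6.11 to 61.1 ± 0.695 TPM (0.94, adjusted p 0.025) and KLF4 from 4.21 ± 0.682 to 9.0 ± 0.539 TPM (0.95, adjusted p 0.021). MYB was 165 and 162 TPM in MOLM-13, compared with MONO-MAC-6 values of 242 and 261 TPM (adjusted p 0.98 and 0.64). GFI1, a repressor that acts in granulocyte precursors, was 52.7 and 46.6 TPM, and 60.2 and 74.1 TPM (adjusted p 0.89 and 0.50). CEBPE, a factor of late granule genes, was under 1.16 TPM in all samples and was not tested.

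Which of these calls held depended on the samples left in. HP, CHI3L1 and TPSB2 passed whichever of the 6 samples of MONO-MAC-6 was left out. Without A9 sample 2, 3 list genes passed, without A9 sample 3, 4, without A9 sample 1, 7, without DMSO sample 2 or 3, 9 each, and without DMSO sample 1, 33. The highest adjusted p with 1 sample left out was 0.050 for CD68 and GZMA, 0.078 for FUCA1, 0.062 for TPSAB1, 0.14 for PRSS57 and KLF4, 0.15 for EGR1, 0.17 for CALR and 0.26 for SPI1. It came from leaving out A9 sample 2 or 3.

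The summed level of monocyte markers was higher under A9 in both lines. Over 10 genes it was 79.2 to 83.6 TPM in MOLM-13 DMSO and 91.8 to 97.7 TPM in A9, and 270 to 287 TPM and 380 to 387 TPM in MONO-MAC-6. In MONO-MAC-6, where 2.51% of all genes were called higher, 3 of 7 tested rose: CD14 (3.14 to 13.0 TPM, log2 difference 1.77, adjusted p 0.0026), S100A12 (17.3 to 38.8 TPM, 1.13, adjusted p 0.028) and MNDA (185 to 240 TPM, 0.38, adjusted p 0.048). The last 2 passed in 1 of 6 fits with a sample left out, without DMSO sample 1. After median-ratio scaling S100A12 (adjusted p 0.10) and MNDA (0.40, log2 difference 0.20) were not called. In MOLM-13, 0 of 5 passed limma, and 3 had an unadjusted p under 0.05. MNDA differed by 1.05 in that line (limma, adjusted p 0.060), a larger value than in MONO-MAC-6. After median-ratio scaling MNDA was called in MOLM-13 (log2 difference 1.10, adjusted p 0.019), and with a replicate block as well (adjusted p 0.015). Of 3 progenitor markers tested, 0 passed in either line, with 2 in MOLM-13 at an unadjusted p under 0.05, and 0 in the other line. Of the T cell, B cell, and erythroid and megakaryocyte markers, 0 passed in either line (in MONO-MAC-6, 2 B cell markers had an unadjusted p under 0.05). The part of these genes in the values of the granule genes was not tested.

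**Figure D5:**
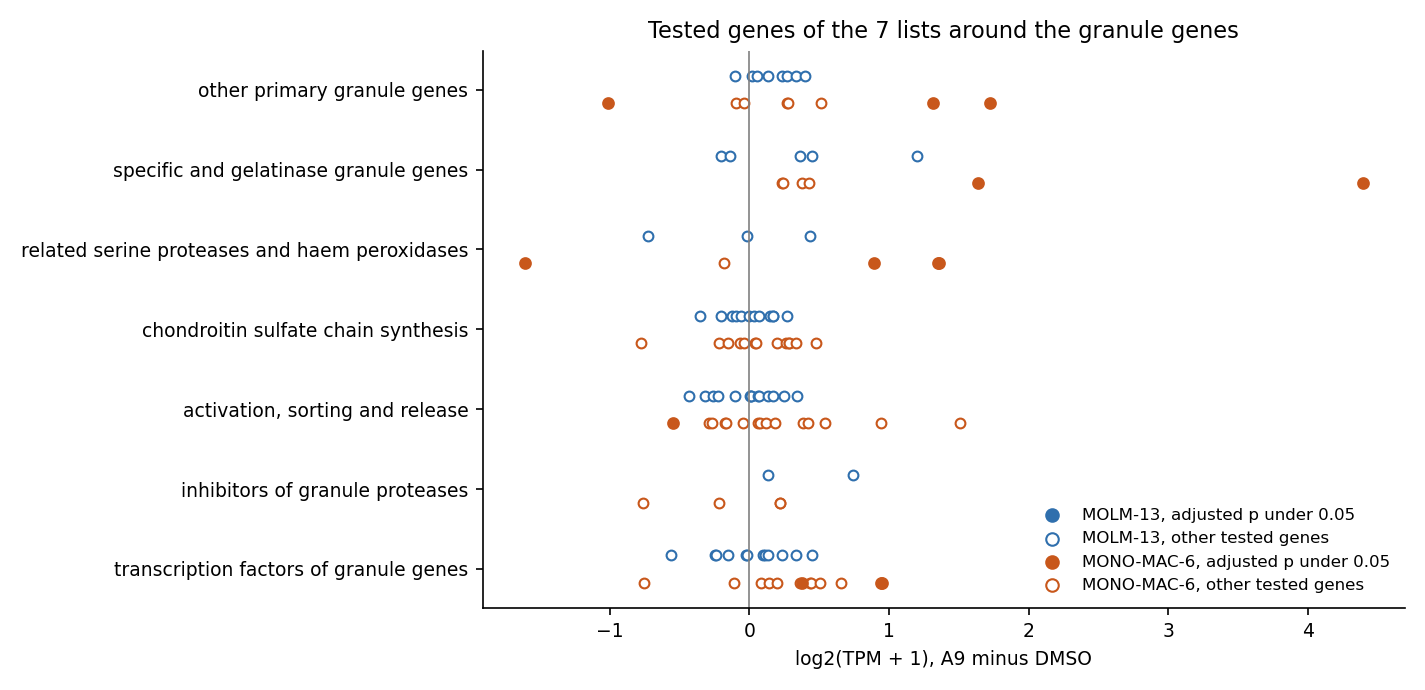
Log2(TPM + 1) difference, A9 minus DMSO, of each tested gene in the 7 lists (rows), in MOLM-13 (blue, upper line of a row) and MONO-MAC-6 (orange, lower line); filled points passed limma at an adjusted p under 0.05 and open points did not. No MOLM-13 point is filled, and the filled MONO-MAC-6 points run from -1.61 (GZMA) to 4.39 (HP).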

How the data were processed

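The authors deposited transcript TPM for 36 libraries, quantified with kallisto on GRCh38 (limma is also listed), per the submitters' processing notes, without versions. Of 207175 transcripts, 162561 (78.47%) matched GENCODE 29 and carried 89.85% to 91.38% of TPM. Unmatched transcripts entered no gene. TPM were summed by gene, and libraries of a first number averaged. In 26 of 28 combinations of member and group, first numbers spread more than the libraries within them (median SD 0.13 against 0.031, log2). limma 3.58.1 (R 4.3.3, trend and robust) was run on log2(TPM + 1) for genes averaging 1 TPM or more in any group, with Benjamini-Hochberg adjustment over all tested genes. A9 was fitted within each line, and the baseline over all 12 samples. The script was tested on simulated data. Alternatives were a pseudocount of 0.1, filters, median-ratio scaling, other averaging, a replicate block and samples left out. Members and lists were chosen with earlier results of these data known. Named list genes were those past the threshold (up to 4 per list and line), 7 set regulators, enzymes and inhibitors, neighbours, and the 3 genes most like LYZ and CTSG.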

Additional observations from a re-analysis of the deposited data

Results flagged for a closer look

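The A9 effect differed between the lines (MONO-MAC-6 minus MOLM-13, limma, adjusted p under 0.05) for CTSG and 12 list genes, among 401 of 13417 genes (2.99%). Line and dose cannot be told apart. CTSG was at -0.95 (SE 0.15), a description because CTSG was chosen on this contrast, and after median-ratio scaling the same value (-1.18) was no longer called. Among genes with a larger effect in MONO-MAC-6, HP was at 3.20, CD68 at 1.49, TPSB2 and TPSAB1 at 1.36 each, FUCA1 at 1.26, CHI3L1 at 1.19, EGR1 at 1.05 and KLF4 at 0.71. TPSAB1 and GZMA were listed at 0 in all MOLM-13 samples, so for them the difference restates the MONO-MAC-6 value. The A9 effect, with its sign, was lower in MONO-MAC-6 than in MOLM-13 for GZMA (-1.61), SLPI (-1.50), PRSS57 (-1.14) and RNASE3 (-0.49).

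SLPI and RNASE3 passed in neither line alone and were named after their values were seen. SLPI, a secreted inhibitor of elastase and cathepsin G, was 2.42 ± 0.901 and 4.63 ± 1.05 TPM in MOLM-13 and 231 ± 51.5 and 134 ± 5.59 TPM in MONO-MAC-6 (DMSO and A9, SD, n = 3). RNASE3, a ribonuclease best known from eosinophil granules, was 42.8 ± 3.25 and 56.5 ± 1.84 TPM in MOLM-13 and 69.5 ± 5.72 and 64.7 ± 1.35 TPM in MONO-MAC-6.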

How the results depend on the processing

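No member changed direction under any alternative, in either line, at baseline or in the difference between the lines. Members called in MOLM-13 numbered 1 in the reported fit, 6 with each library as its own sample, 7 with libraries of a second number averaged, and 0 to 1 with 1 sample left out. In MONO-MAC-6 they numbered 3, 5, 7 and 1 to 6. List genes called in MOLM-13 numbered 0, then 24, 33 and 0, and in MONO-MAC-6 13, 40, 55 and 3 to 33. All genes called in MOLM-13 numbered 14, then 1741, 5439 and 2 to 8, with 4 without a filter and 48 after median-ratio scaling. In MONO-MAC-6 they numbered 433, then 5586, 8705 and 59 to 3205, with 272 without a filter. Averages over a second number spread less than those over a first number (median SD 0.016 against 0.13, log2, over the members). Counting libraries singly raised n from 3 to 9 per group, which treats libraries of a first number as independent. At baseline, members called numbered 6 to 7, list genes 42 to 49 with 1 sample left out, and all counts stayed within 1.5 times the reported ones.

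First numbers are shared between groups. With first numbers as a replicate block, 3 members were called in MOLM-13 (CTSG and ELANE beside LYZ) and 2 in MONO-MAC-6, 2 and 7 list genes, and 87 and 94 genes in all. Deviations of same-numbered samples correlated at 0.39, -0.077 and 0.69 in MOLM-13 and -0.036, 0.10 and -0.11 in MONO-MAC-6, so the numbers were not taken as pairs. Not every sample correlated best with its own number.

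Depth is unknown, 3 samples per group limit the exact tests, and unmatched transcripts were not used.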
